A study of Mus musculus with 8 samples.

Results

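SLC25 carriers are the largest family of transport proteins of the mitochondrial inner membrane, and they move nucleotides, phosphate, carboxylates, amino acids, cofactors and iron between the cytosol and the matrix. In heart muscle they carry ATP out of the matrix and ADP and phosphate into it, and the malate-aspartate shuttle, which brings reducing equivalents into the matrix, runs through the oxoglutarate-malate carrier and the aspartate-glutamate carriers. A few members sit elsewhere, such as Slc25a17 in the peroxisome and Slc25a46 in the outer membrane. The family described here held 44 of the 27179 genes in the count table. Its members were chosen by gene symbol, Slc25a followed by a number, with Slc25a14, Slc25a20 and Slc25a27 left out, and none was selected on its own measured level. The family was, however, proposed with the DE against FA results known, and Slc25a34 is among the genes the study had picked on these same libraries, so its change is given as a description and is not independent evidence.

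RNA-seq was performed on neonatal cardiomyocytes (NCMs) from 8 male C57Bl/6J mice at postnatal day 0, 4 from dams that breathed filtered air (FA) and 4 from dams that breathed diesel exhaust (DE) through gestation, from embryonic day 0.5 to shortly before birth. Each library came from 1 heart, trimmed of atrial and vascular tissue and pre-plated to remove fibroblasts, so the cells are enriched for cardiomyocytes but not pure. The labels do not say whether neonates shared a litter, so p-values measure the spread between these 8 libraries. All FA names and those of DE replicates 1 and 7 hold the number 11 after the group code, and those of DE replicates 3 and 5 hold 12. The meaning of this number, called the prefix below, is not given.

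Libraries held 17943024 to 39839737 counts, and the members took 0.551% to 0.685% of them. Summed cardiomyocyte markers reached 44699 to 50617 CPM (counts scaled to the effective library size) in FA and 38248 to 46136 in DE, and all 10 were detected in each library. Each of the 10 had a negative fold change, 3 with an unadjusted p under 0.05, and 1, Pln, was called lower. Summed fibroblast markers ran from 2007 to 3459 CPM in FA and from 3653 to 6173 in DE without overlap, and all 8 had a positive fold change, with Col1a1 and Dcn called higher. Smooth muscle and pericyte markers summed to 1587 to 2147 CPM in FA and 1150 to 1548 in DE, also without overlap, but 5 of the 8 had positive fold changes, 0 were called by edgeR's quasi-likelihood test (2 at an unadjusted p under 0.05), and the sum was led by Acta2, at means of 1150 and 745 CPM. The other summed lists overlapped between groups, and the endothelial, erythroid, leukocyte, hepatocyte, brown adipocyte and skeletal muscle lists spanned 1180 to 1890, 759 to 2021, 12.5 to 27.0, 12.3 to 29.1, 298 to 568 and 1036 to 1448 CPM over all libraries. Positive fold changes were held by 7 of 8 tested endothelial markers, 6 of 6 erythroid, 5 of 6 leukocyte, 4 of 5 hepatocyte, 3 of 5 brown adipocyte and 4 of 6 skeletal muscle markers, and of these Slc4a1 (erythroid) was called higher and Cidea (brown adipocyte) lower. In bulk RNA, fewer cells of a type and less RNA per cell cannot be told apart, and the part of these marker differences in the values below was not tested.

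Slc25a34 and Slc25a42 were called lower in DE, and Slc25a1 and Slc25a29 were called higher. The bases upstream of their annotated start sites are shown because these are the 4 members called between groups. They are from the RefSeq promoter table, GRCm38.p6, which held 34 of the 44 members, and all 4 genes lie on the minus strand. Each line runs 5′ to 3′ toward the start site, and capitals mark matches, on either strand, to CCAAT (the box bound by NF-Y), AGGTCA (the half-site of many nuclear receptors) or CACGTG (an E-box). The stretches are chr4:141623892-141624084 for Slc25a34, whose annotated span reaches past the listed start and was left out, chr8:70212282-70212531 for Slc25a42, chr16:17928220-17928469 for Slc25a1 and chr12:108835877-108836126 for Slc25a29.
Slc25a34: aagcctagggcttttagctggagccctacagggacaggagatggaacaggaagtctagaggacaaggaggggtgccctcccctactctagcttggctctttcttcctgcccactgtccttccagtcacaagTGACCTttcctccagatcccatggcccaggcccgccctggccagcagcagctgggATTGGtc
Slc25a42: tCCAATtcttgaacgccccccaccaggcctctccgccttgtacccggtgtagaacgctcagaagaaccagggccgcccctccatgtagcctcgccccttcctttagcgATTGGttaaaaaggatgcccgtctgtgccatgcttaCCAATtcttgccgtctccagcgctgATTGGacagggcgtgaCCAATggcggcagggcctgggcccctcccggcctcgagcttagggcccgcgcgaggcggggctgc
Slc25a1: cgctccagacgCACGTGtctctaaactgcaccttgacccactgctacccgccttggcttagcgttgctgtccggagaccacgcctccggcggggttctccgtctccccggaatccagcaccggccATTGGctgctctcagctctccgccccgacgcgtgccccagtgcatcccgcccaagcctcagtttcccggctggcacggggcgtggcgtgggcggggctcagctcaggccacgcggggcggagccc
Slc25a29: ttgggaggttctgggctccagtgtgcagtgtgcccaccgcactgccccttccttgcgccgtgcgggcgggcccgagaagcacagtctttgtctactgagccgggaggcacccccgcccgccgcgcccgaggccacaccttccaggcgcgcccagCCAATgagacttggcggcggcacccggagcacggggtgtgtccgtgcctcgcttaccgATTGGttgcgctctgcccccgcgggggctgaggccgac

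The stretch of Slc25a34 held 1 CpG in 193 bases, against 18 in the 250 bases of Slc25a42 and 25 in each of the 250 bases of Slc25a1 and Slc25a29. The half-site of Slc25a34 lay 119 bases before its start and the CCAAT box 64 bases before it. AGGTCA in either orientation stood in 16.3% of all 32851 windows of 300 bases (250 before and 50 after a start) and in 4 of the 42 windows of the 34 members, those of Slc25a34, Slc25a39, Slc25a45 and Slc25a47. Slc25a42 was the one member with 5 CCAAT boxes, 249, 142, 106, 81 and 65 bases before its start, and 0.271% of all windows held 5 or more. CCAAT alone was common, in 37.4% of all windows and in 22 of the members' 42, which belong to 19 members, all 4 called members among them. The E-box of Slc25a1 lay 239 bases before its start, and CACGTG stood in 7.15% of all windows and in 6 of the members' 42. The ETS core CCGGAAG stood in 8.86% of all windows and 6 of the members' 42, and the NRF-1 core CGCATGCG in 1.87% and 0 of 42. A pair of AGGTCA half-sites 1 base apart stood in 0.0396% of all windows and in 0 of the members' 42. These matches are a description of the letters in the windows and were not tested as sites.

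Members differed 7021-fold in level per kilobase of exon in FA, from Slc25a4 to Slc25a35, among the 40 that passed the filter on low counts. On that scale 4 members were above 100 CPM per kilobase in FA, 14 from 10 to 100, 14 from 1 to 10 and 12 under 1. Slc25a4, the ADP/ATP carrier of heart and muscle, led at 1661 ± 223 CPM per kilobase (SD, n = 4) in FA and stood apart from Slc25a3, the phosphate carrier, at 514 ± 50.3. Slc25a3 was followed by Slc25a5, the second ADP/ATP carrier, at 504 ± 68.6, and the FA ranges of these neighbours overlapped. Next came Slc25a11, the oxoglutarate-malate carrier, at 137 ± 15.4, Slc25a39, a glutathione carrier, at 65.2 ± 12.7, and Slc25a12, an aspartate-glutamate carrier, at 32.3 ± 2.27 CPM per kilobase. Of the 39 neighbouring pairs in this order, 27 had overlapping FA ranges. The members that were not tested were Slc25a54, Slc25a41, Slc25a21 and Slc25a48, with 8, 6, 10 and 1 counts over all 8 libraries.

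**Figure D1:**
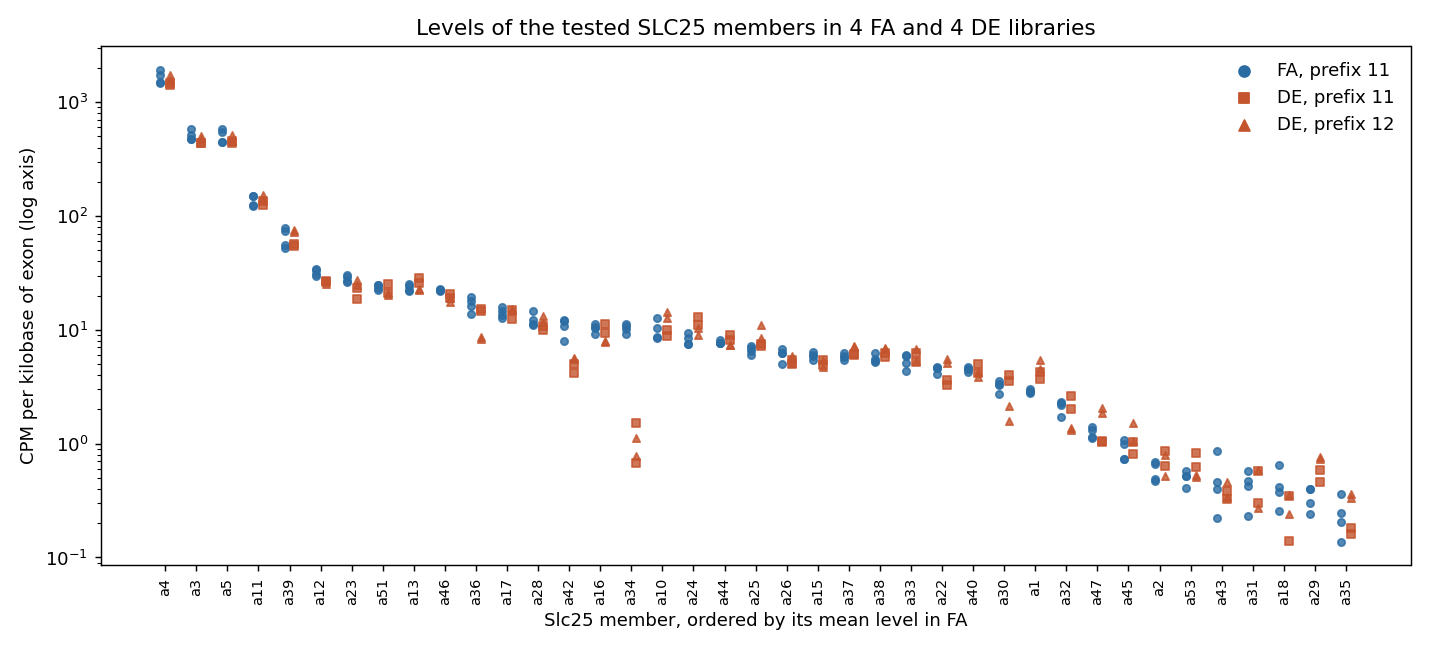
Level of 39 tested members in CPM per kilobase of exon (log axis), with members ordered from left to right by their FA mean and 1 point per library (circles FA, squares DE libraries of prefix 11, triangles those of prefix 12). Slc25a4 stands at the top left, and the DE points of Slc25a34 fall from the middle of the order to about 1 CPM per kilobase.

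Slc25a4, Slc25a3 and Slc25a5 together made up 75.6% to 79.1% of the family's normalized counts in every library. Slc25a4 alone gave 49.6% to 52.9% of them. The family total was 5684 to 7063 CPM in FA and 5373 to 6305 in DE, with overlapping ranges. Without these leading 3, the remaining members summed to 1368 to 1474 CPM in FA and 1263 to 1347 in DE, with every DE library below every FA library on this scale. As a share of the raw library totals they took 0.134% to 0.143% in FA and 0.130% to 0.136% in DE, and these ranges overlapped, so the separation depends on the TMM scaling.

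Of 40 tested members, 18 had a higher and 22 a lower mean in the fit, and 20 had a log2 fold change within 0.2 of 0. The median log2 fold change was -0.04, against 0.004 over all 14966 tested genes, and with library totals alone these medians were 0.04 and 0.08. Called means an adjusted p of 0.05 or less (edgeR's quasi-likelihood test, Benjamini-Hochberg adjustment over all tested genes) with a difference of at least 25%. By that rule 2 members were called lower, beside 2.22% of all tested genes, and 2 higher, beside 3.58%, so that 10% of tested members were called, beside 5.8% of all tested genes. The FA and DE libraries did not overlap for 4 members that were lower in DE (7.26% of all tested genes) and 3 that were higher (7.44%). The 36 uncalled members had log2 fold changes from -0.58 to 0.39, and 10 of all 40 had an unadjusted p under 0.05, 4 higher and 6 lower, a share of 25% beside 25.6% of all tested genes.

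**Figure D2:**
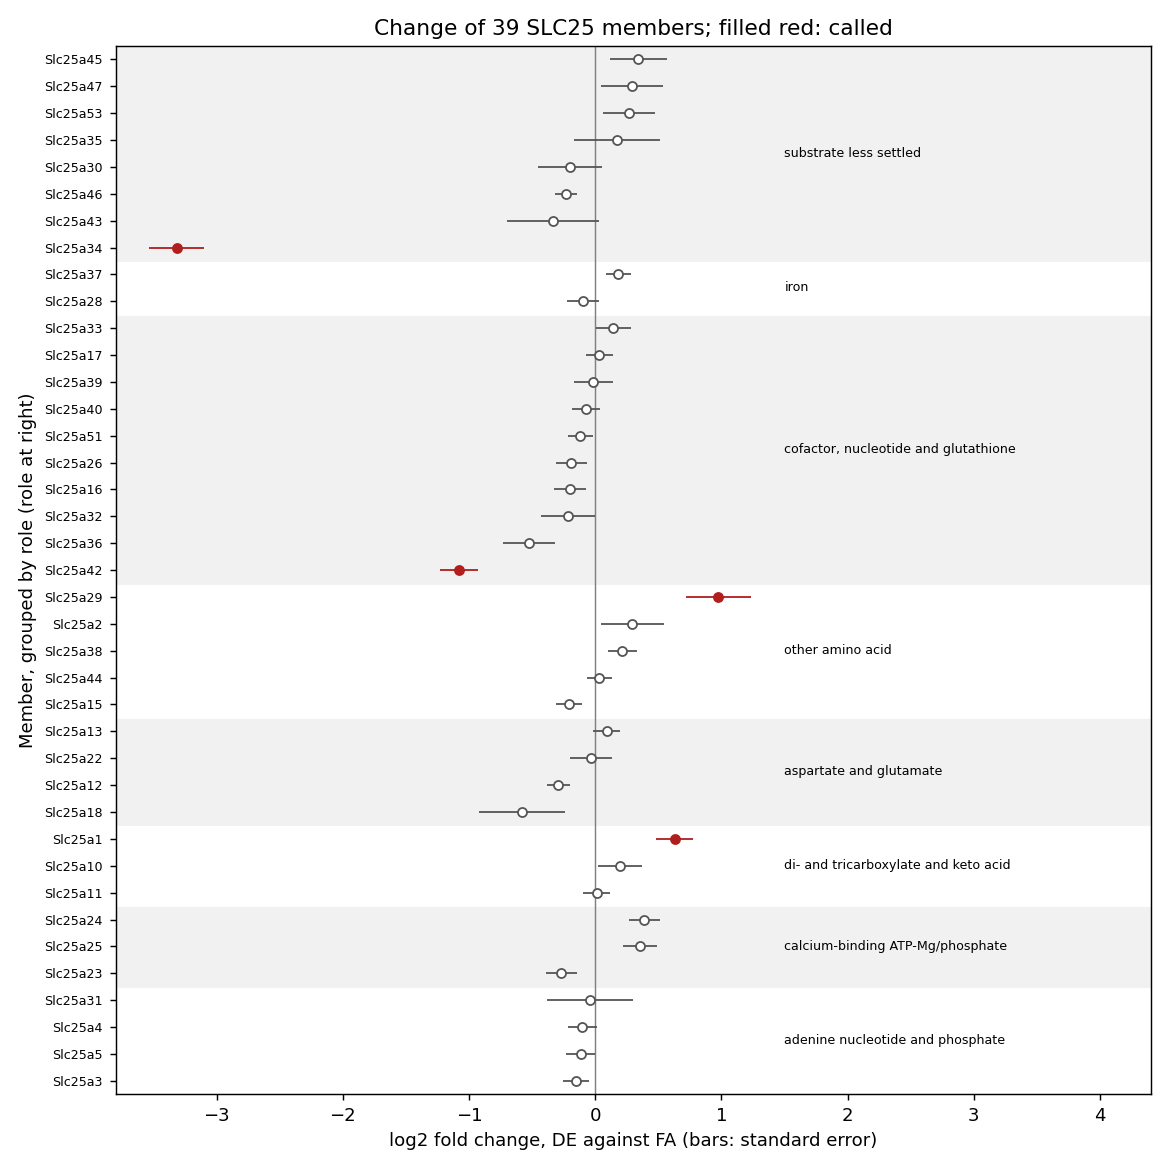
Log2 fold change of DE against FA for 39 tested members, grouped by role, with bars for the standard error of the edgeR fit (4 libraries per group) and filled red points for called members. Slc25a34 lies far to the left of the others at -3.32, Slc25a42 at -1.08, Slc25a1 at 0.63 and Slc25a29 at 0.98.

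Slc25a34, a carrier whose substrate is not settled, was the member with the largest change. It lies on chromosome 4 at 141618819 to 141623891 (GRCm38, like the other positions) and read 27.0, 28.7, 30.3 and 24.7 CPM in FA replicates 2, 3, 4 and 6, against 4.08, 1.81, 2.98 and 2.07 in DE replicates 1, 7, 3 and 5. The highest DE library was far below the lowest FA library, and the level was low in both DE name prefixes. The log2 fold change was -3.32 with a standard error of 0.22 (edgeR's quasi-likelihood test, Benjamini-Hochberg adjusted p = 2.09e-05), 9.96-fold lower in DE. On the scale of CPM per kilobase it fell from rank 17 to rank 33 of the 44 members, at 10.4 ± 0.90 in FA and 1.02 ± 0.385 in DE (SD, n = 4 each). It was called in 20 of 20 alternative analyses.

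Slc25a35, its closest relative, was listed near 1 CPM in both groups. Its 4 FA libraries read 0.748, 0.896, 0.508 and 1.33 CPM and its DE libraries 0.665, 0.586, 1.32 and 1.22, with overlapping groups and a log2 fold change of 0.17 ± 0.34 (SE). Within each library the log2 ratio of Slc25a34 to Slc25a35 per kilobase was 5.53 ± 0.69 (SD, n = 4) in FA and 2.01 ± 0.80 in DE without overlap. Slc25a35 rests on 210 counts in all, so its own ratio carries counting error.

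Slc25a42, which brings coenzyme A into the matrix, was lower in all DE libraries. This gene on chromosome 8 at 70184340 to 70212281 read 39.3, 38.5, 34.7 and 25.4 CPM in FA replicates 2, 3, 4 and 6 and 15.997, 13.4, 17.6 and 18.1 in DE replicates 1, 7, 3 and 5. FA replicate 6 was the lowest of its group but still above every DE library. The log2 fold change was -1.08 with a standard error of 0.15 (edgeR's quasi-likelihood test, Benjamini-Hochberg adjusted p = 0.00306), 2.11-fold lower, and it was called in 20 of 20 alternatives. In CPM per kilobase its rank went from 14 to 25. Slc25a16, which is also tied to coenzyme A transport, read 28.9 to 35.3 CPM in FA and 24.4 to 35.2 in DE, overlapping, with a log2 fold change of -0.20 ± 0.13 (SE).

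Slc25a1, the citrate carrier that feeds cytosolic lipid synthesis, was higher in DE. It lies on chromosome 16 at 17925211 to 17928219, and read 5.05, 4.83, 4.62 and 4.77 CPM in FA replicates 2, 3, 4 and 6 against 6.11, 7.03, 9.12 and 7.60 in DE replicates 1, 7, 3 and 5. The FA libraries were tightly grouped, and each DE library lay above all of them, with the DE libraries of prefix 12 the highest. The log2 fold change was 0.63 with a standard error of 0.15 (edgeR's quasi-likelihood test, Benjamini-Hochberg adjusted p = 0.0323), 1.55-fold higher. The call was lost in 9 of 20 alternatives, among them the fits without FA replicate 2, 3, 4 or 6 and without DE replicate 3 or 5. With prefix 11 libraries alone the log2 fold change was 0.43 with an edgeR adjusted p of 0.191, and with the name prefix as a term it was 0.44 with an edgeR adjusted p of 0.153. With offsets for exon length and GC content, chosen after seeing the data, it was 0.42 with an edgeR adjusted p of 0.0481.

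Slc25a29, a carrier of basic amino acids on chromosome 12 at 108825878 to 108835876, was higher in DE at a low level. It read 0.481, 0.797, 0.790 and 0.590 CPM in FA replicates 2, 3, 4 and 6, against 1.15, 0.906, 1.46 and 1.496 in DE replicates 1, 7, 3 and 5. The groups did not overlap, although the gap between FA replicate 3 and DE replicate 7 was small, and the whole value rests on 226 counts. Its log2 fold change was 0.98 with a standard error of 0.26 (edgeR's quasi-likelihood test, Benjamini-Hochberg adjusted p = 0.0495), 1.97-fold higher. It was lost in 11 of 19 alternatives, among them the fits without FA replicate 2, 3, 4 or 6 and without DE replicate 3 or 5, and with prefix 11 libraries alone the log2 fold change was 0.69 with an edgeR adjusted p of 0.301. With the name prefix as a term it was 0.70 with an edgeR adjusted p of 0.232, and with the offsets 0.78 with an edgeR adjusted p of 0.0423.

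**Figure D3:**
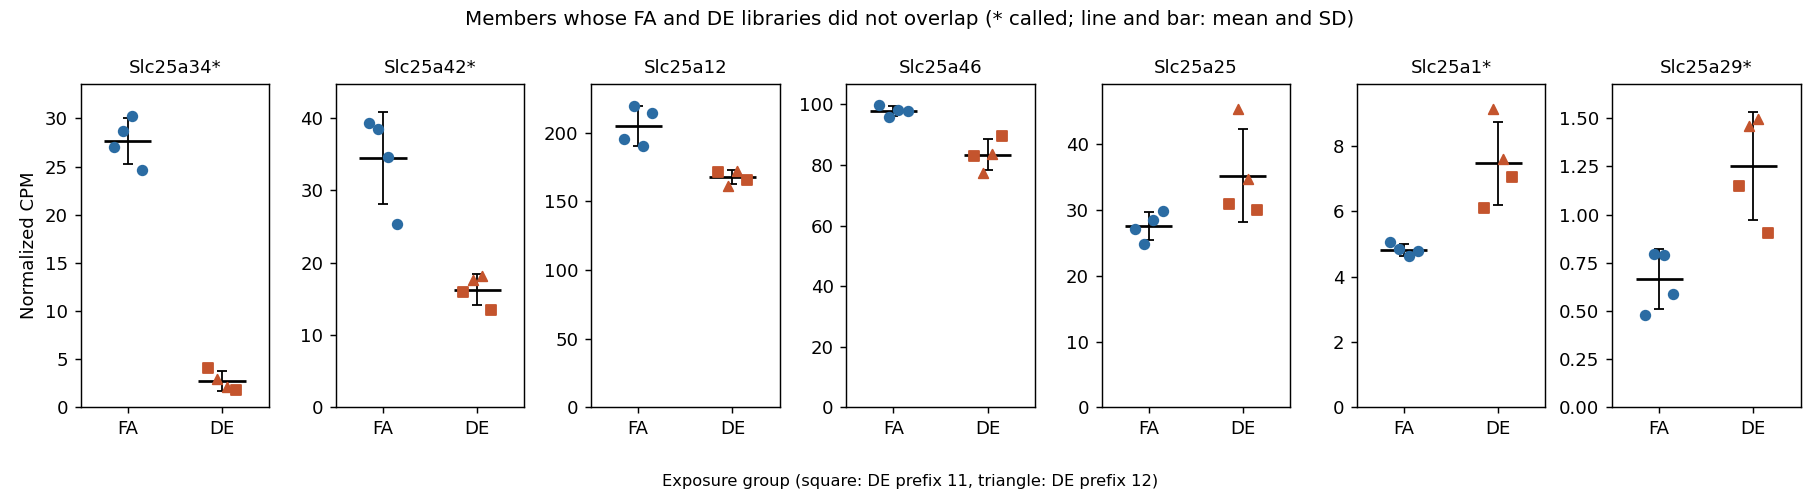
Normalized CPM of the 7 members whose 4 FA and 4 DE libraries did not overlap, 1 point per library, with the mean as a line and the SD as a bar (squares DE libraries of prefix 11, triangles those of prefix 12, an asterisk for called members). The scales differ between panels and each starts at 0; the 3 uncalled members, Slc25a12, Slc25a46 and Slc25a25, show gaps that are small beside those of Slc25a34.

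The adenine nucleotide and phosphate carriers had small negative log2 fold changes in the fit, and 0 of 4 were called. Slc25a4 read 2817, 3729, 2882 and 3360 CPM in FA and 2719, 2853, 3005 and 3335 in DE, with overlapping groups and a log2 fold change of -0.10 ± 0.12 (SE). Slc25a5 read 550, 722, 558 and 672 CPM in FA and 542, 562, 570 and 636 in DE (log2 fold change -0.11 ± 0.11), and Slc25a3 read 932, 1138, 929 and 1004 in FA and 849, 853, 921 and 986 in DE (-0.15 ± 0.10). Their Benjamini-Hochberg adjusted p-values in edgeR's quasi-likelihood test were 0.610, 0.547 and 0.378. Without FA replicate 3 their log2 fold changes were -0.022, -0.041 and -0.084 in the same order. The log2 ratio of Slc25a4 to Slc25a5 per kilobase was 1.72 ± 0.02 in FA and 1.73 ± 0.04 in DE, with the smallest SD of the 8 ratios between related members in both groups. Slc25a31, the ADP/ATP carrier known from testis, read 0.491 to 1.23 CPM in FA and 0.573 to 1.26 in DE, with a log2 fold change of -0.04 ± 0.34 (SE).

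The aspartate and glutamate carriers had 1 higher and 3 lower means, and 0 of 4 were called. Slc25a12, the aspartate-glutamate carrier of heart and muscle, read 195, 220, 190 and 215 CPM in FA and 171, 166, 161 and 172 in DE. Every DE library lay below every FA library, and the log2 fold change was -0.29 ± 0.09 (SE), with an edgeR quasi-likelihood Benjamini-Hochberg adjusted p of 0.0768, the lowest of the uncalled members. Slc25a13, the liver form, read 75.1, 68.7, 70.3 and 79.1 CPM in FA and 81.1, 89.6, 69.8 and 71.7 in DE, overlapping. The log2 ratio of Slc25a12 to Slc25a13 per kilobase was 0.46 ± 0.13 in FA and 0.08 ± 0.17 in DE without overlap, and without division by exon length it was 1.48 in FA and 1.11 in DE. Of the glutamate carriers, Slc25a22 read 13.6, 13.4, 11.7 and 13.4 CPM in FA and 10.5, 9.43, 14.7 and 16.1 in DE, with the DE libraries of the 2 prefixes below and above all FA values, and the sign of its log2 fold change of -0.03 turned with library totals alone. Slc25a18 read 0.721, 1.245, 0.790 and 0.491 CPM in FA and 0.665, 0.266, 0.459 and 0.673 in DE over 146 counts in all, and its log2 fold change was -0.58 ± 0.34 (SE), or -0.32 without FA replicate 3.

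The calcium-binding carriers of ATP-Mg and phosphate had means in both directions, 2 higher and 1 lower, with 0 called of 3 tested. Slc25a23 read 97.7, 103, 89.0 and 91.0 CPM in FA and 78.4, 62.5, 83.4 and 91.6 in DE (log2 fold change -0.27 ± 0.12, SE). Slc25a24 read 29.3, 25.8, 32.1 and 25.8 CPM in FA and 37.5, 44.2, 35.7 and 31.0 in DE, and the groups overlapped only at DE replicate 5 (0.39 ± 0.13). Slc25a25 read 27.1, 24.9, 28.5 and 29.9 CPM in FA and 30.9, 30.0, 45.4 and 34.7 in DE, without overlap by a margin smaller than the FA spread (0.36 ± 0.14), and its log2 fold change was 0.21 without DE replicate 3, 0.14 with the name prefix as a term and 0.14 with prefix 11 libraries alone. For these 3, edgeR's quasi-likelihood test gave Benjamini-Hochberg adjusted p-values of 0.189, 0.0875 and 0.137. Per kilobase, the log2 ratio of Slc25a23 to Slc25a25 was 2.08 ± 0.20 in FA and 1.46 ± 0.25 in DE without overlap, that of Slc25a23 to Slc25a24 was 1.78 ± 0.22 and 1.12 ± 0.44 with overlap, and that of Slc25a25 to Slc25a24 was -0.30 and -0.35. The annotated gene spans of Slc25a25 and Naif1, introns included, overlap by 1014 bases.

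**Figure D4:**
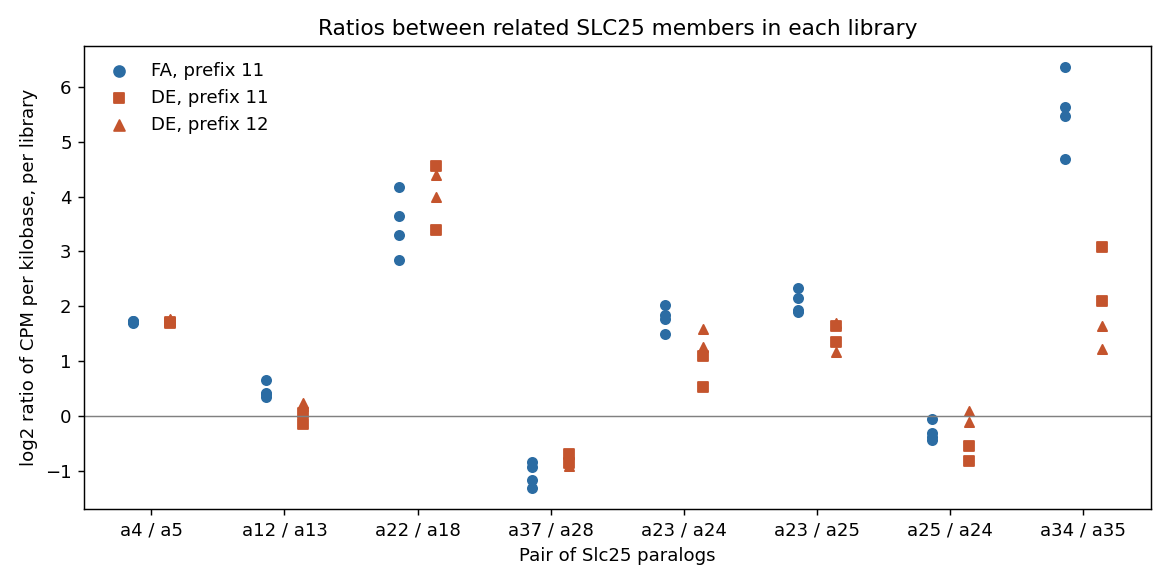
Log2 ratio of the levels per kilobase of 8 pairs of related members in each library (circles FA, squares and triangles DE with prefix 11 and 12). The ratio of Slc25a34 to Slc25a35 averages 5.53 in FA and 2.01 in DE, that of Slc25a12 to Slc25a13 0.46 and 0.08, and that of Slc25a4 to Slc25a5 1.72 and 1.73.

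Of the carboxylate carriers, all 3 tested members had a higher mean in DE and 1, Slc25a1, was called. Slc25a11 read 212, 256, 210 and 257 CPM in FA and 212, 230, 239 and 262 in DE, overlapping. Its log2 fold change was 0.01 ± 0.11 (SE), a value whose sign turned when the name prefix was a term. Its annotated gene span, introns included, overlaps that of Rnf167 by 302 bases. Slc25a10, the dicarboxylate carrier, read 17.1 to 25.6 CPM in FA and 18.0 to 29.0 in DE (0.20 ± 0.17). The other amino acid carriers had 4 higher and 1 lower mean, with Slc25a29 the 1 called of 5, and the other 4 had log2 fold changes from -0.21 to 0.30. Slc25a47, 13956 bases from Slc25a29 on chromosome 12, had a log2 fold change of 0.29 ± 0.24 (SE).

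The carriers of cofactors, nucleotides and glutathione had 3 higher and 8 lower means, and 1 of 11, Slc25a42, was called, and Slc25a36 and Slc25a33, which carry pyrimidine nucleotides, were at -0.52 ± 0.20 and 0.14 ± 0.14 on the log2 scale (SE). Slc25a39 read 89.0, 131, 94.3 and 125 CPM in FA and 91.9, 94.8, 121 and 128 in DE, overlapping, with a log2 fold change of -0.01 ± 0.16 (SE) whose sign turned with library totals alone. The mitoferrins, which import iron for heme and iron-sulfur clusters, did not pass the test. Slc25a37 read 24.0, 24.5, 26.1 and 22.7 CPM in FA and 25.01, 25.7, 30.2 and 29.5 in DE (log2 fold change 0.18 ± 0.10, or 0.061 with the name prefix as a term and 0.056 with prefix 11 libraries alone), and Slc25a28 read 16.8, 22.4, 17.2 and 18.8 in FA and 16.7, 15.3, 17.9 and 20.3 in DE (-0.09 ± 0.13). Slc25a37 is known from red cell precursors, and the summed erythroid markers of 759 to 1880 CPM in FA and 1208 to 2021 in DE overlapped between groups, but all 6 tested erythroid markers had positive fold changes (median log2 fold change 0.41) and Slc4a1 was called higher. The part of these in the value of Slc25a37 was not tested. Among the 8 tested carriers whose substrate is less settled, 4 had higher and 4 lower means, with Slc25a34 the 1 called and the other 7 from -0.33 to 0.34 on the log2 scale. Slc25a46, named here after its values were seen, read 95.7 to 99.7 CPM in FA and 77.4 to 89.7 in DE, without overlap, with a log2 fold change of -0.23 ± 0.09 (SE) and an edgeR quasi-likelihood adjusted p of 0.123.

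Within the DE group, libraries of prefix 12 differed from those of prefix 11 in some members. In a 3-group edgeR quasi-likelihood fit (FA, DE prefix 11, DE prefix 12; Benjamini-Hochberg adjustment), 2 members were called lower in prefix 12 (1.54% of all tested genes) and 2 higher (0.528%), with 2 libraries on each side. Slc25a36, which carries pyrimidine nucleotides, read 77.6 and 80.9 CPM in the DE libraries of prefix 11 and 44.1 and 45.7 in those of prefix 12, a log2 fold change of -0.82 ± 0.15 (SE). FA libraries of Slc25a36 read 73.3 to 102 CPM, so the prefix 11 libraries lay inside the FA range and the prefix 12 libraries below it, beside a DE against FA log2 fold change of -0.52 ± 0.20. Slc25a30 went from 14.5 and 12.8 CPM to 7.63 and 5.66 (-1.04 ± 0.18), and Slc25a22 from 10.5 and 9.43 to 14.7 and 16.1 (0.62 ± 0.14). The adjusted p-values of this edgeR fit were 0.0357, 0.0339 and 0.04996 in that order. For 26 of the 40 tested members the difference from FA had the same sign in both prefixes, and for 14 it had opposite signs. Slc25a34 and Slc25a42 were low in both, at means of 2.95 and 2.53 CPM and of 14.7 and 17.8 CPM.

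Members rich in GC tended to be higher in the prefix 12 libraries. Spearman's rho between the fitted prefix 12 against 11 log2 fold change and longest-transcript GC content was 0.73 over the 40 tested members. Over the 13851 tested genes with a GC value rho was 0.43. That second rho used log2 ratios of summed CPM rather than fitted changes, so these values are not like for like. The points share the same 4 DE libraries, so this is a description across genes, which are not replicates. Over the same members rho of the DE against FA log2 fold change with GC content was 0.23. GC content was 59.1% for Slc25a1 and 60.4% for Slc25a29, which were called higher. It was 58.0% for Slc25a34 and 56.1% for Slc25a42, which were called lower, beside a members' median of 51.0%. The part of GC content in these calls was not tested. The median coefficient of variation over the tested members was 16.1% in DE and 11.0% in FA, beside 14.5% and 13.6% over all tested genes, and 26 of 40 members had the larger one in DE.

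**Figure D5:**
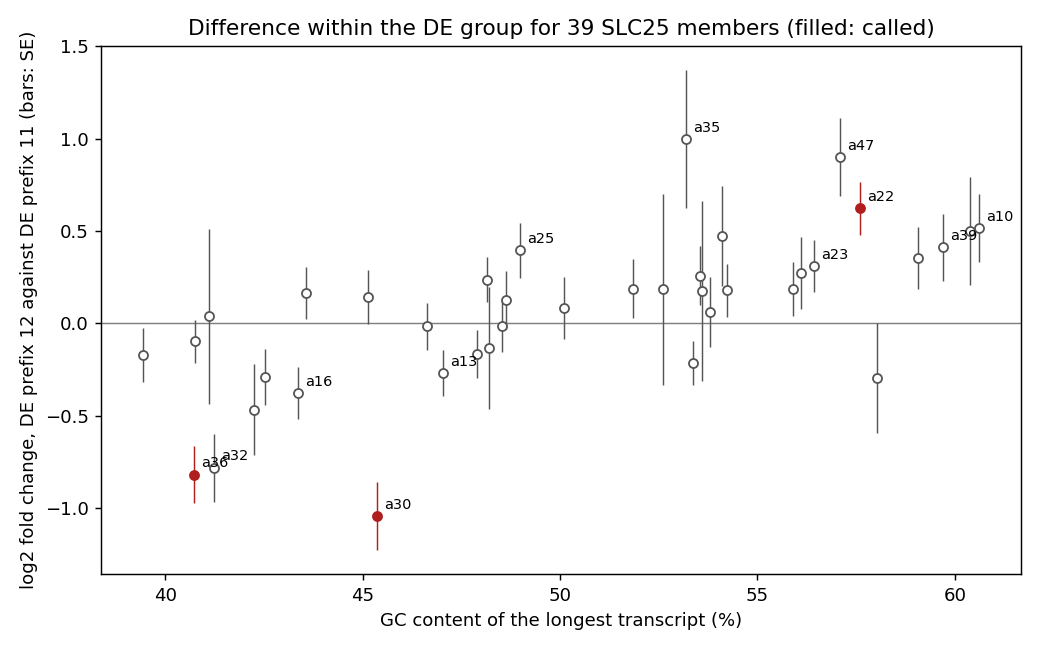
Log2 fold change of DE libraries of prefix 12 against those of prefix 11 (vertical axis, bars for the standard error, 2 libraries per side) by GC content of the longest transcript (horizontal axis, percent) for 39 tested members, with called members filled. Some members with low GC content, such as Slc25a36 and Slc25a30, lie below 0, and some with high GC content, such as Slc25a22 and Slc25a10, above it. Others go the other way, such as Slc25a34, at 58.0% GC and below 0, and Slc25a3, at 43.6% and above it.

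Of related genes that the symbol rule left out, Slc25a20, the carnitine-acylcarnitine carrier, went from 123 to 149 CPM in FA to 58.4 to 67.5 in DE, and Ucp2 and Ucp3 were also called lower. In the same comparison 3 of the 8 related carriers were called lower and 0 higher, beside 2.22% and 3.58% of all tested genes, and no difference between this list and the members was tested. Of 19 other mitochondrial transport genes, among them Vdac1, Mcu and Mpc1, 0 were called in either direction by edgeR's quasi-likelihood test and 6 had an unadjusted p under 0.05, or 31.6% beside 25.6% of all tested genes. Of 14 enzymes that feed or use these carriers, 3 had higher and 11 lower means, and 1, malic enzyme Me1, was called lower (2.22% of all tested genes), at 56.8 ± 6.92 CPM in FA and 35.3 ± 2.23 in DE (SD, n = 4). Of 10 genes of mitochondrial content, 2 had higher and 8 lower means, and 1, Tomm70a, was called lower (2.22% of all tested genes). The list's summed level overlapped between groups at 2455 to 2686 CPM in FA and 2208 to 2536 in DE.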

How the data were processed

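NCM RNA was poly-A enriched and sequenced as TruSeq Stranded libraries. Per the submitters' processing notes and methods, the authors aligned reads to mm10 with TopHat, marked duplicates with Picard, realigned with GATK and counted with featureCounts. What the authors deposited is 1 table of unnormalized counts, with an Entrez ID for each gene. The counting annotation, strand setting and treatment of multi-mapping reads are not given in the sources used here, so overlapping genes and close paralogs such as Slc25a4 and Slc25a5 are uncertain (14 members overlap another annotated gene). The methods state fewer libraries per group than the 4 deposited, and all 4 of each group were used.

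Symbols, positions and promoters came from RefSeq (GRCm38.p6): 25275 of 27179 genes had a symbol and 1904 did not. Exon length and GC content came from GENCODE M21 transcripts. Counts were tested with edgeR 4.0.16 (R 4.3.3): filterByExpr with a minimum count of 10, TMM factors, the quasi-likelihood test with p-values of the 14966 tested genes adjusted after Benjamini and Hochberg, with calls at 0.05 and a 1.25-fold difference. The test was checked on simulated data. Values given library by library are those of called members, the 6 with the highest level per kilobase in FA and the paralog sets, and the rest are given by range. The DE values of Slc25a36 and Slc25a30 are an exception, named after the comparison of DE prefixes was seen. The members and gene lists were chosen with earlier results of these data known, so no set test and no adjustment over a list was run. Alternatives were DESeq2 1.42.0, limma-voom (limma 3.58.1), the edgeR likelihood ratio test, a 25% difference built into the test, other normalizations and filters, the name prefix as a term, prefix 11 libraries alone, each library left out and, added after seeing the data, length and GC offsets and the comparison of DE prefixes. Counting error limits the rarely counted members. Values of 1 tested member are not reported here and are left out of the plots, but it is included in all counts.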

Additional observations from a re-analysis of the deposited data

Results flagged for a closer look

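Slc25a22, a glutamate carrier, read 11.7 CPM in FA replicate 4, below the other FA libraries, of which the nearest read 13.4 CPM. The gap was large beside the range of the 4 FA libraries (Dixon's ratio 0.888). Among 38 groups of 4 libraries examined (19 members in FA and in DE), chance alone would mark about 1 in 20.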

How the results depend on the processing

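Slc25a34 and Slc25a42 were called in 20 of 20 alternatives. The number of members called higher, 2, was 1 (Slc25a1) with limma-voom, without a filter on low counts and with a minimum mean of 1 CPM, 1 with the name prefix as a term (Slc25a24, with both Slc25a1 and Slc25a29 lost), 0 with a 25% difference built into the test and with prefix 11 libraries alone, and 0 to 2 over the 8 fits that each left out 1 library. It was 0 without any one of FA replicates 2, 3, 4 and 6 and DE replicates 3 and 5. The number called lower, 2, was 4 with offsets for exon length and GC content, chosen after seeing the data. Over all genes the count of 868 became 1618 with DESeq2, 1603 with the likelihood ratio test, 114 with the difference built in, 448 with the prefix term, 260 with prefix 11 alone, 1551 with the offsets and 237 to 1168 over the left-out fits. The fits without FA replicate 2, 3 or 4 or DE replicate 3 or 5 moved it by over 1.5 times (249, 433, 237, 268 and 526).

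For 4 of the 19 members given library by library in both FA and DE, all uncalled, the sign turned under some alternative. The log2 fold change of Slc25a11 was -0.079 with the prefix term, -0.084 with prefix 11 alone, -0.12 with the offsets and -0.044 to 0.060 over the left-out fits. That of Slc25a22 was 0.038 with library totals alone, -0.39 with the prefix term, -0.39 with prefix 11 alone and -0.17 to 0.071 over the left-out fits. That of Slc25a35 was -0.45 with the prefix term, -0.45 with prefix 11 alone and -0.022 to 0.42 over the left-out fits. That of Slc25a39 was 0.012 with upper quartile factors, 0.059 with library totals alone, -0.24 with the prefix term, -0.24 with prefix 11 alone and -0.10 to 0.082 over the left-out fits. Library totals alone moved the median of all genes to 0.08 and that of the members to 0.04. Slc25a24 was called with DESeq2 (adjusted p = 0.0490), the prefix term (0.0498) and the offsets (0.0180), and Slc25a23 with the offsets (0.0238). The cause of these shifts was not tested.

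No paired analysis was possible because no label links an FA library to a DE library. Depth limits the members with few counts, such as Slc25a29 with 226 and Slc25a18 with 146 over all libraries, and 4 members fell below the filter on low counts.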
